A study of Bos taurus with 8 samples.

Results

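The Hedgehog core genes are the 3 ligands SHH, IHH and DHH, the receptor PTCH1, the decoy receptor HHIP, the signal transducer SMO and the transcription factors GLI1, GLI2 and GLI3. They were taken by symbol from a table of read counts for 33132 genes, and all 9 symbols were in it. The table holds 8 libraries of rumen, the forestomach in which microbes ferment the feed. Of these, 4 came from newborn male calves and 4 from adult steers, which are castrated males. All animals were angus crosses, with 1 library per animal, so castration and age cannot be told apart in the comparison. The labels give no diet, age in days or batch for either group.

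Hedgehog ligands are lipid-modified secreted proteins. In the gut they are made mostly by the epithelium and act on the mesenchyme beneath it. Without ligand, Patched holds Smoothened inactive and GLI proteins, GLI3 above all, are processed into repressors. When a ligand binds Patched, Smoothened enters the primary cilium and GLI proteins become activators. GLI1, PTCH1 and HHIP are themselves direct targets, and GLI1 is the one most often used as a readout of the signal.

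Library totals were 42322022 to 54449684 counts. Levels are given as CPM, counts scaled to a common TMM-adjusted library total, and a log2 change is the steer level minus the calf level in edgeR's quasi-likelihood fit over all genes. Of 16326 genes tested, 2752 (16.9%) had a Benjamini-Hochberg adjusted p under 0.05 and are called here; 9.16% of genes were called as lower and 7.7% as higher in steers. With library size as the only scaling, 34.9% of calls were higher in steers instead of 45.7%, and the median log2 change of all genes moved from 0.04 to -0.07. The tissue libraries held both squamous epithelium and muscle. The basal keratin KRT5 had 3161 ± 213 CPM over calves and 3491 ± 604 over steers, and the muscle filament gene DES had 3099 ± 1423 and 27909 ± 20580 (SD, n = 4).

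One core gene, GLI1, was called, as lower in steers. Of the 9 genes 8 passed the filter on low counts; 7 of them had negative and 1, GLI3, a positive fitted change. The 1 call of 8 is 12.5%, against 16.9% of all tested genes, so the share of calls does not set the core genes apart. In 4 of the 8 (GLI1, SHH, DHH and SMO) every steer lay below every calf, where 12.8% of all tested genes did so. The median log2 change of the 8 was -1.34, beside 0.04 over all tested genes, and -1.01 over the 7 left by a stricter filter that drops HHIP. HHIP reached the filter level of 0.212 CPM in 4 calves and 1 steer, so it passed through the calves. The stricter filter (at least 1 CPM in 4 libraries) was met by DHH through the calves alone. For GLI1 only steer 3 of the steers reached its level.

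**Figure D1:**
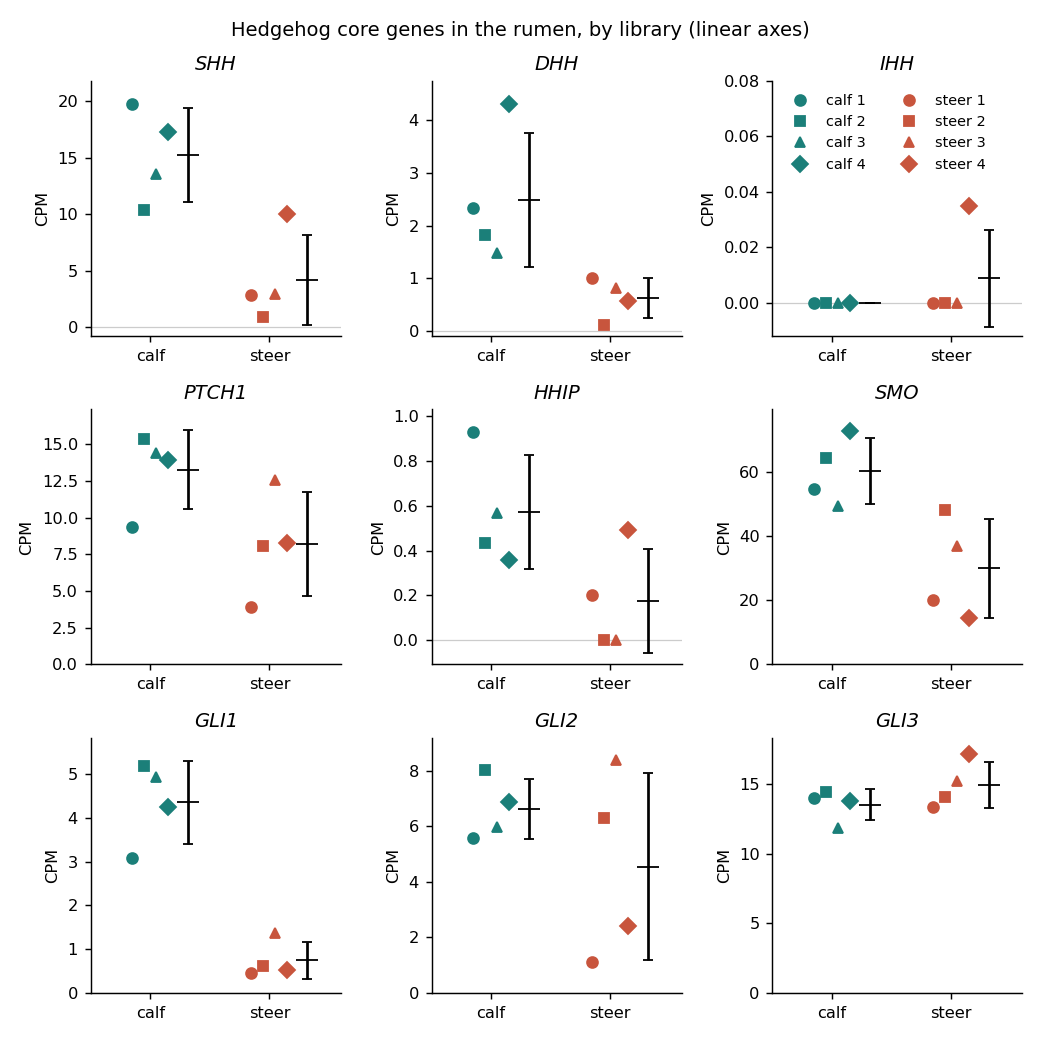
CPM of the 9 core genes in each library on linear axes, calves in teal and steers in red, with the group mean ± SD (n = 4) in black beside the points. The 4 steers lie below the 4 calves for GLI1, SHH, DHH and SMO, while the groups overlap for PTCH1, HHIP, GLI2 and GLI3, and IHH is at 0 in 7 libraries.

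SHH was the most abundant ligand. In the count table it lies on chromosome 4, from 117483495 to 117495944 on the minus strand, in an assembly not named in the labels or the header, as for all positions below. SHH had 19.8, 10.4, 13.5 and 17.3 CPM in calves 1 to 4, and 2.85, 0.947, 2.98 and 9.99 CPM in steers 1 to 4. The groups did not overlap, but steer 4 lay close to calf 2, and the highest steer had 10.6 times the level of the lowest. The means were 15.2 ± 4.1 and 4.19 ± 3.98 CPM, a log2 change of -1.85 ± 0.60 (SE), and the adjusted p of 0.0601 missed the threshold. Without steer 4 the change was -2.74 (adjusted p = 0.0039), and over 20 alternative settings the adjusted p ran from 0.00378 to 0.141, with 5 calls. A stretch of 7.24% of its counted span is shared with LOC112446460 on the other strand, and reads there were not counted.

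DHH, the ligand known from Schwann cells and the testis, was the less abundant ligand. It lies on chromosome 5 from 30727666 to 30737473. Its level was 2.33, 1.82, 1.47 and 4.31 CPM in calves 1 to 4 and 1.00, 0.111, 0.820 and 0.561 CPM in steers 1 to 4. Every steer was below every calf, with calf 4 the highest and steer 2, at 4 counts, the lowest. The means of 2.48 ± 1.27 and 0.623 ± 0.386 CPM gave a log2 change of -1.98 ± 0.61 that fell just short of a call (adjusted p = 0.0525). Over the alternatives its adjusted p ran from 0.0058 to 0.161, with 3 calls of 20.

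IHH, the ligand of cartilage and of differentiated intestinal epithelium, was barely seen. It spans 107001062 to 107006924 on chromosome 2, shares no bases with another gene, and had no count in 7 libraries. Steer 4 had 2 counts (0.0351 CPM), which may be 1 read pair because both mates were counted. If every count were independent, a count of 0 would allow up to 3 counts, or 0.0502 to 0.0835 CPM by library, for counting error only. As both mates were counted, the limit is higher than this by an amount not computed. No fold was computed, as both groups lie under even the lower limit.

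Per kilobase of counted span, calves had 1.22 CPM of SHH and 0.253 CPM of DHH on average. In steers the same quantities were 0.337 and 0.0635. These spans include introns, so a level per kilobase is lower for a gene with long introns. SHH and DHH have spans of like size (12450 and 9808 bases), while those of GLI2, GLI3 and HHIP are 192311, 317881 and 109580 bases, and these 3 are not ranked against the ligands.

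PTCH1, the ligand receptor and a target of the signal, was lower in steers on average, and the groups overlapped. It spans 82098139 to 82168938 on chromosome 8. PTCH1 had 9.36, 15.4, 14.4 and 13.97 CPM in calves 1 to 4 and 3.95, 8.05, 12.6 and 8.31 CPM in steers 1 to 4. Steer 3 lay above calf 1, and steer 1 was the lowest of the 8 libraries. The log2 change was -0.69 ± 0.34 (adjusted p = 0.193), and none of the 20 alternatives called it (0.0976 to 0.337).

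HHIP binds ligand at the cell surface and keeps it from Patched. It spans 13448750 to 13558329 on chromosome 17 and was the rarest core gene after IHH. Calves 1 to 4 had 40, 26, 27 and 17 counts, or 0.932, 0.435, 0.568 and 0.356 CPM. Steers 1 to 4 had 8, 0, 0 and 28 counts, or at most 0.491 CPM. Steer 4 was within the range of the calves and steers 2 and 3 were empty, so the fitted change of -1.67 ± 1.06 was uncertain (adjusted p = 0.315). It was -3.09 without steer 4 and -1.25 without steer 3. No alternative called HHIP (0.0815 to 0.529).

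SMO carries the signal from Patched to the GLI proteins. Its mean level was the highest of the 9 in both groups, also per kilobase of counted span, at 2.47 CPM per kilobase in calves and 1.23 in steers, although GLI3 was above it in steer 4. The gene spans 93108630 to 93132945 on chromosome 4. Calves 1 to 4 had 54.5, 64.2, 49.3 and 72.6 CPM and steers 1 to 4 had 20.2, 48.2, 36.7 and 14.5. All steers lay below all calves, although steer 2 lay close to calf 3. The means were 60.2 ± 10.3 and 29.9 ± 15.4 CPM, a log2 change of -1.01 ± 0.35 that missed the threshold (adjusted p = 0.0791). Without steer 2 it was called at -1.32 (0.0291), and the adjusted p over the alternatives was 0.00437 to 0.175, with 4 calls of 20.

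GLI1, the amplifier and readout of the pathway, fell in steers. It spans 55992681 to 56003151 on chromosome 5 and shares 0.105% of that span, at its end, with ARHGAP9. GLI1 had 3.07, 5.19, 4.92 and 4.25 CPM in calves 1 to 4, from 132, 310, 234 and 203 counts. It had 0.450, 0.612, 1.38 and 0.526 CPM in steers 1 to 4, from 18, 22, 74 and 30 counts. The groups stood well apart: the highest steer, steer 3, was under the lowest calf, calf 1. The mean fell from 4.36 ± 0.94 to 0.742 ± 0.430 CPM, to 17.0% of the calf mean, a log2 change of -2.54 ± 0.43 (adjusted p = 0.00438). GLI1 was called in all 20 alternatives, at log2 changes of -3.03 to -2.31 and adjusted p-values of 2.83e-08 to 0.0169.

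GLI2 is the main activator that acts before GLI1 is induced, and it was unevenly expressed among steers. It spans 72561679 to 72753989 on chromosome 2. The calves were close together, at 5.59, 8.03, 5.98 and 6.86 CPM for calves 1 to 4. Steers 1 to 4 had 1.10, 6.29, 8.38 and 2.42 CPM, with steers 2 and 3 in the range of the calves or above it and steers 1 and 4 below it. The log2 change of -0.54 ± 0.54 did not pass (adjusted p = 0.537), nor did any alternative.

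GLI3, the main repressor of the family, had the steadiest level of the 9 genes. It spans 78747382 to 79065262 on chromosome 4. Calves 1 to 4 had 14.02, 14.4, 11.9 and 13.8 CPM and steers 1 to 4 had 13.3, 14.1, 15.2 and 17.2 CPM. The coefficient of variation was 8.38% over calves and 11.1% over steers, the lowest of the core genes in each group. The log2 change was 0.15 ± 0.18 (adjusted p = 0.642; 0.543 to 0.944 over the alternatives). Reads were counted for the whole gene, so full-length GLI3 and its repressor, which are forms of the protein, are not measured.

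Ratios between core genes within a library need no scaling between libraries, and 5 were compared with two-sided exact permutation tests over 4 calves and 4 steers. For each 100 counts of GLI3, calves 1 to 4 had 21.9, 36.0, 41.5 and 30.9 counts of GLI1. In steers 1 to 4 there were 3.37, 4.35, 9.07 and 3.06 counts of GLI1 for each 100 of GLI3, all below the calves. The mean log2 ratio of GLI1 to GLI3, with 0.5 added to each count, was -1.66 ± 0.39 in calves and -4.45 ± 0.70 in steers, a difference of -2.80. The exact permutation p was 0.0286, the smallest that 4 against 4 can give, and 0.0714 after Benjamini-Hochberg adjustment over the 5 ratios, so it did not pass. For each 100 counts of GLI2 there were 55.0, 64.6, 82.4 and 61.9 counts of GLI1 in calves 1 to 4 and 40.9, 9.73, 16.4 and 21.7 in steers 1 to 4. These ratios did not overlap either, and the mean log2 ratio differed by -1.73 (exact permutation p = 0.0286, adjusted 0.0714). Both ratios with GLI1 thus had the smallest p, and over 5 ratios neither could pass unless another ratio reached it too. No conclusion is drawn from their not passing.

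The other 3 ratios overlapped between the groups. GLI2 to GLI3 was 39.9 to 55.7 counts for each 100 in calves, and 8.24, 44.7, 55.1 and 14.1 in steers 1 to 4, so that steers 1 and 4 were the low ones (log2 difference -1.07, exact permutation p = 0.229, adjusted 0.381). PTCH1 to SMO was 17.2 to 29.2 counts for each 100 in calves, and 19.6, 16.7, 34.2 and 57.4 in steers 1 to 4 (log2 difference 0.37, exact permutation p = 0.486, adjusted 0.486). HHIP to PTCH1 was 2.54 to 9.95 for each 100 in calves and 5.06, 0, 0 and 5.91 in steers 1 to 4 (exact permutation p = 0.343, adjusted 0.429). Its log2 difference depends on the count added for the 2 empty libraries and is not given as a size.

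**Figure D2:**
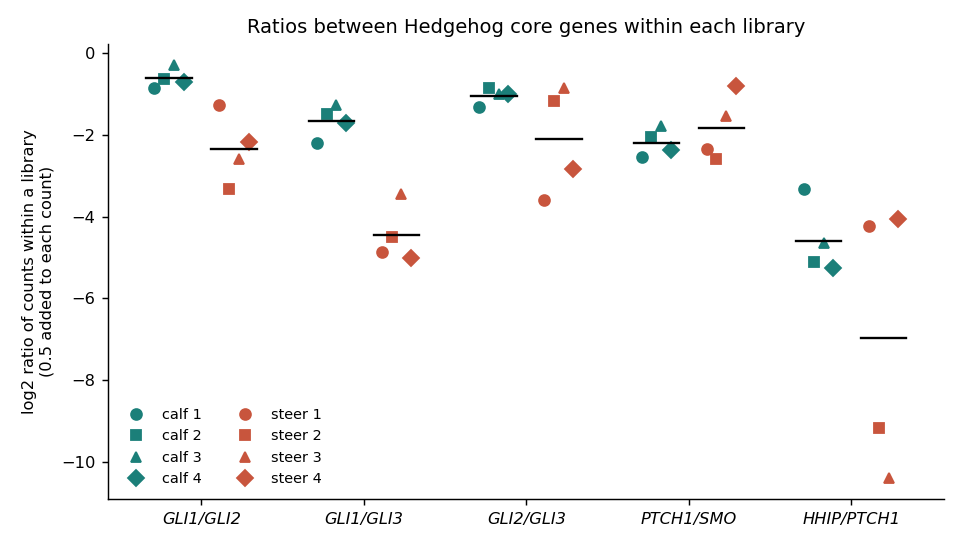
Log2 ratio of the counts of 2 core genes within each library, with 0.5 added to each count; teal marks calves, red steers, and bars are group means. GLI1 relative to GLI2 and to GLI3 is lower in each of the 4 steers than in each of the 4 calves, and the lowest points of HHIP/PTCH1 are the 2 steers with no HHIP count.

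Genes that make and release the ligand were lower in steers where they were called. Of 12 in this list 9 were tested, and 3 fell while none rose (33.3%, against 16.9% of all tested genes called and 9.16% called lower), with a median log2 change of -0.96 over the 9, beside 0.04 over all tested genes. HHAT, the acyltransferase that adds palmitate to Hedgehog ligands, fell from 12.1 ± 3.4 to 4.58 ± 0.82 CPM (-1.40 ± 0.28, adjusted p = 0.00862). SCUBE1, of the family of secreted proteins that carry the lipid-modified ligand, fell from 14.7 ± 5.1 to 3.27 ± 1.62 CPM (-2.17 ± 0.40, adjusted p = 0.00631). Its relative SCUBE2 was at 8.27 ± 2.33 and 8.002 ± 4.151 CPM (adjusted p = 0.953). The releasing channel DISP1 was at 3.44 ± 1.11 and 4.77 ± 0.50 CPM (adjusted p = 0.311). NOTUM, an extracellular lipase known chiefly for removing the lipid of Wnt proteins and listed here as a handler of ligands, fell by 2.47 ± 0.65 on the log2 scale (adjusted p = 0.029; lost without calf 1, 2 or 3 or steer 1 or 3, and with a smooth muscle covariate at 0.0731). The most abundant member with no call was the protease ADAM10, at 29.2 ± 3.7 and 24.5 ± 6.4 CPM.

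None of the 3 coreceptors described here passed the test. The coreceptors CDON and BOC, which present ligand to Patched, were at 27.7 ± 8.1 and 18.8 ± 6.4 CPM and at 31.6 ± 8.9 and 19.8 ± 4.0 CPM in calves and steers (adjusted p = 0.235 and 0.0995). GAS1, the coreceptor anchored by a lipid, was at 21.1 ± 12.8 and 47.3 ± 35.4 CPM (adjusted p = 0.228).

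In the relay between Smoothened and the GLI proteins, 1 of 23 tested genes fell and none rose (4.35%, against 16.9% of all tested genes), and the median log2 change was 0.06. GRK2, a kinase that phosphorylates Smoothened and many other receptors, fell from 159.5 ± 7.7 to 85.6 ± 14.5 CPM (-0.90 ± 0.19, adjusted p = 0.0102). SUFU, which holds GLI proteins in check, was at 4.69 ± 1.13 and 4.16 ± 1.14 CPM (adjusted p = 0.757), and KIF7, the kinesin at the cilium tip, at 8.34 ± 1.84 and 7.19 ± 4.19 (0.777). GPR161, a ciliary receptor that restrains the pathway, was at 1.68 ± 0.24 and 1.75 ± 0.72 CPM (adjusted p = 0.948). GNAS, the stimulatory G protein subunit, was the most abundant member with no call, at 762 ± 42 and 771 ± 113 CPM, and 59.8% of its counted span is shared with other genes.

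Genes of the primary cilium, the organelle in which the signal passes, were called in 2 of 35 cases (5.71%, against 16.9% of all tested genes). Of the 35, 1 rose and 1 fell, and the median log2 change was 0.20. TULP3, which brings GPR161 and other receptors into cilia, had 46.6, 36.1, 40.2 and 33.7 CPM in calves 1 to 4 and 16.8, 16.9, 17.2 and 11.9 in steers 1 to 4. No steer reached the lowest calf, and the log2 change was -1.32 ± 0.20 (adjusted p = 0.00242). IFT57, a subunit of the transport train, rose from 10.2 ± 3.1 to 21.5 ± 6.9 CPM (1.07 ± 0.30, adjusted p = 0.0369), with groups that overlapped. The IFT57 call ended without calf 1, 3 or 4 or any 1 of steers 2 to 4, with library size only, and with a smooth muscle covariate (1.11, adjusted p = 0.0519). The most abundant member with no call was BBS4, of the ciliary coat complex, at 42.6 ± 5.5 and 35.7 ± 3.2 CPM.

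Genes often reported as induced by Hedgehog signalling moved in both directions. Of 22 listed 20 were tested, and 2 rose and 3 fell (25.0%, against 16.9% of all tested genes), with a median log2 change of 0.03. FST, the secreted activin inhibitor follistatin, fell from 7.23 ± 4.35 to 0.417 ± 0.362 CPM (-4.08 ± 0.67, adjusted p = 0.00356; -4.89 without steer 4). FOXC2, a forkhead factor, fell from 0.651 ± 0.277 to 0.113 ± 0.045 CPM (adjusted p = 0.0188) and is named after its values were seen. Its steer mean lay under the filter level of 0.212 CPM, so it passed the filter through the calves. Its call is therefore no separate support. SFRP1, a secreted Wnt antagonist, rose from 17.1 ± 3.4 to 134.1 ± 26.2 CPM (2.97 ± 0.24, adjusted p = 0.000115), in every steer above every calf. CCND2, a G1 cyclin, rose by 1.45 ± 0.37 (adjusted p = 0.0248; lost without calf 1, 2 or 4 or steer 1, and without calf 2 and steer 4 together).

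The gut mesenchymal factors of this list did not pass. FOXF1 was at 20.02 ± 14.09 and 41.7 ± 31.0 CPM (adjusted p = 0.256), FOXF2 at 14.2 ± 6.2 and 15.8 ± 8.7 (0.859) and BMP4 at 13.998 ± 9.18 and 6.87 ± 4.305 (0.229). JAG2, a Notch ligand and the most abundant member with no call, was at 158.5 ± 21.9 and 216.5 ± 59.1 CPM. CCND1 and SNAI1 lie wholly inside other counted spans, so their reads were dropped and they could not be measured. Over the 5 lists together, with each gene once, 8 of 91 tested genes fell and 3 rose (12.1%, against 16.9% of all tested genes).

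**Figure D3:**
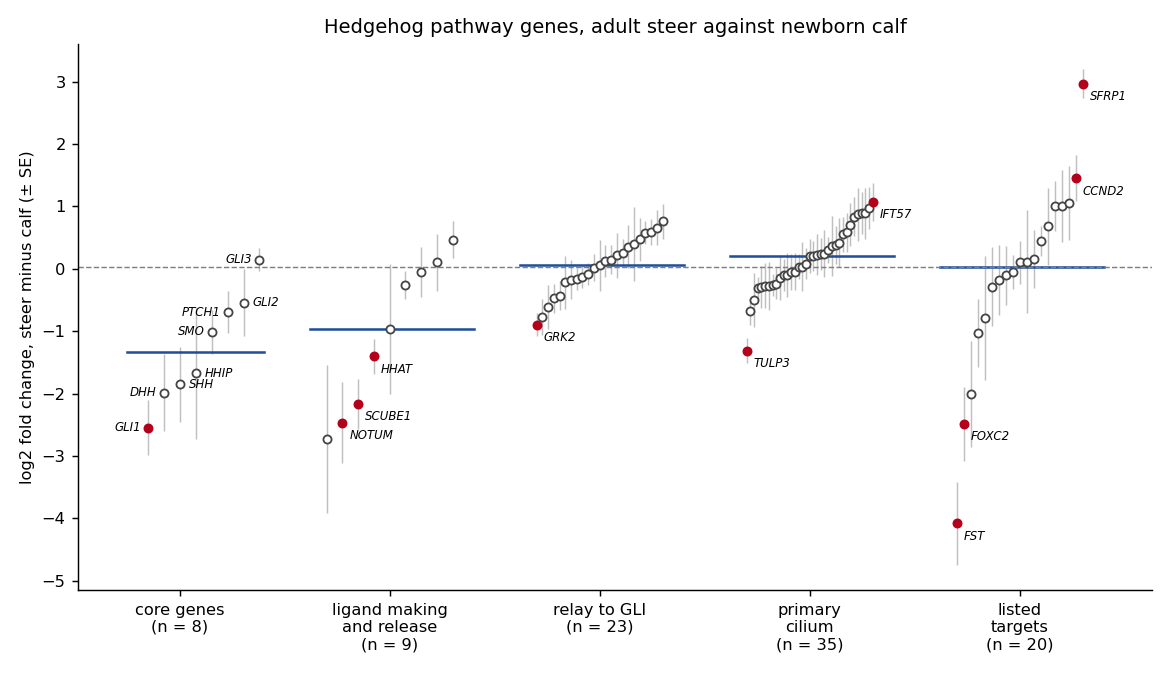
Log2 change (steer minus calf, bars ± SE) of genes in the core set and in 4 lists of pathway genes, where n and the medians cover all tested genes and 1 called target is not drawn; filled red points have an adjusted p under 0.05, blue lines are list medians and the dashed line is the median of all tested genes. GLI1 is the called core gene, and the medians of the relay and cilium lists are 0.06 and 0.20. The listed targets spread from -4.08 (FST) to 2.97 (SFRP1).

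Genes with profiles like those of GLI1 and PTCH1 were sought among all others. With 13845 genes to pick from, some would lie nearer than the few core genes in almost any case. The distances therefore do not show how closely the core genes go together. Likeness was measured as the root mean square difference between 2 profiles of log2 CPM over the 8 libraries, each centred on its own mean, among 13845 other genes with a mean of at least 1 CPM. The 5 nearest to GLI1 were EFEMP1 and NPNT, both extracellular matrix proteins, GNAT1, a transducin subunit of rod cells, MXRA5, a matrix remodelling protein, and ATP1B1, a sodium pump subunit. Their differences from GLI1 were 0.291 to 0.343, whereas the nearest core gene, SMO, stood at 0.908. EFEMP1 fell from 20.7 ± 1.4 to 3.13 ± 0.96 CPM (-2.72 ± 0.26), and MXRA5 from 66.7 ± 13.2 to 8.73 ± 6.43 CPM (-2.93 ± 0.44).

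The 5 genes nearest to PTCH1 were the zinc finger gene ZNF266, LOC509810, the bZIP factor MAF, the membrane protease BACE2 and PAPSS1, which makes the sulfate donor of the cell. They differed from PTCH1 by 0.191 to 0.232, and the nearest core gene, GLI2, by 0.4997. MAF was at 14.9 ± 3.7 and 8.70 ± 2.26 CPM (log2 change -0.78 ± 0.27, adjusted p = 0.0785) and none of the 5 was called. These genes were picked for their likeness, so their own values are a description.

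**Figure D4:**
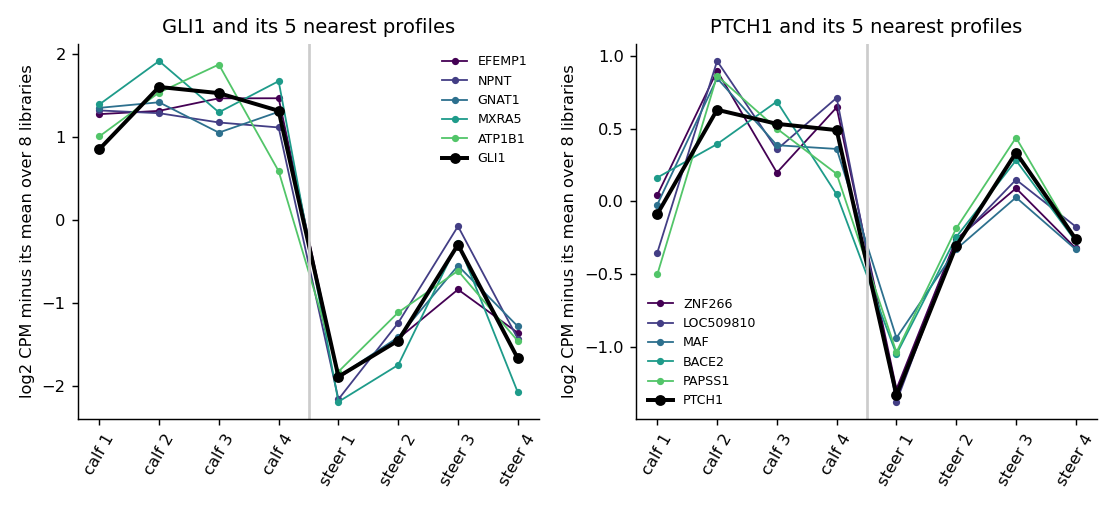
Log2 CPM of GLI1 (left, black) and PTCH1 (right, black) and of the 5 genes nearest to each, centred on each gene's mean over 8 libraries; lines only join the points of 1 gene and replicates have no order. In both panels steer 1 is the lowest library of the black line and steer 3 the highest steer.

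Some markers of several cell types were called as well. The shares called in the lists below stand beside 16.9% of all tested genes, 9.16% lower and 7.7% higher in steers. In bulk tissue, fewer cells of a type and less RNA per cell cannot be told apart. Over 9 fibroblast markers the summed level was 1709 to 4897 CPM in calves and 640 to 1452 CPM in steers, without overlap. Of the 9, 4 fell (44.4%). The most abundant, COL3A1, was at 897 ± 419 and 560 ± 271 CPM (adjusted p = 0.323), and PDGFRA, a marker of the mesenchyme that receives the signal, at 3.88 ± 3.67 and 5.21 ± 2.69 (0.706). Over 11 smooth muscle markers the sum was 6395 to 18605 CPM in calves and 10953 to 109361 CPM in steers, and 4 rose and 1, ACTA2, fell. ACTA2 and ACTG2 are near-identical, so reads can be lost or split between them. Within steers the smooth muscle sum was 56463, 109361, 52012 and 10953 CPM for steers 1 to 4. Steer 2 was the highest and steer 4 the lowest both in this sum and in SMO. Steers 1 and 3 were in opposite order, with more of the sum in steer 1 and more SMO in steer 3 (20.2 and 36.7 CPM). With the mean of these markers as a covariate the log2 change was -2.68 for GLI1 (adjusted p = 0.0148, against -2.54 and 0.00438 without it). For SMO it was -1.74 (0.00437, against -1.01 and 0.0791). It was -1.39 for SHH (0.0512, against -1.85 and 0.0601) and -1.81 for DHH (0.161, against -1.98 and 0.0525). The marker sums of steers 1 to 3 lay above those of all calves, so muscle content and group cannot be fully told apart in this fit. The part of fibroblast content in the lower GLI1 and SMO was not tested.

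Epithelial and nerve markers bear on the ligands. The sum of 10 basal keratinocyte markers was 11817 to 17225 CPM in calves and 8517 to 16263 CPM in steers, which overlapped. Of the 10, 2 rose and 1 fell (30.0%, against 16.9% of all tested genes). Steer 4, the steer with the most SHH, had the lowest keratinocyte sum and the lowest smooth muscle sum of the steers. Over 7 Schwann cell and glia markers the sum was 78.2 to 142.5 CPM in calves and 47.5 to 94.1 CPM in steers, which overlapped. Of the 7, 1 fell (14.3%, against 16.9% of all tested genes). The glial transcription factor SOX10 was at 7.87 ± 2.79 and 3.03 ± 1.96 CPM (adjusted p = 0.0979). Over 8 enteric neuron markers the sum was 23.9 to 41.1 CPM in calves and 5 to 10.4 in steers, without overlap, and 4 fell. The most abundant of these, UCHL1, a neuronal ubiquitin hydrolase, fell from 15.5 ± 4.0 to 1.82 ± 1.13 CPM (adjusted p = 0.00247). The part of nerve content in the DHH levels was not tested.

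The remaining marker lists were low next to epithelium and muscle. Endothelial markers summed to 235 to 499 CPM in calves and 174 to 256 in steers, where 1 of 7 fell, and interstitial cell markers to 8.71 to 18.0 and 9.40 to 44.0 with no call among 3. Mesothelial markers summed to 14.3 to 25.9 CPM in calves and 41.6 to 114.7 in steers, without overlap; 1 of 2 tested rose, UPK3B, and the defining marker WT1 was at 0 in every library. Immune markers summed to 8.38 to 20.1 and 9.80 to 38.2 CPM, and 3 of 5 tested rose. Blood markers reached 4.15 CPM in 1 calf and at most 0.501 in steers, with SLC4A1 at 0 throughout.

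**Figure D5:**
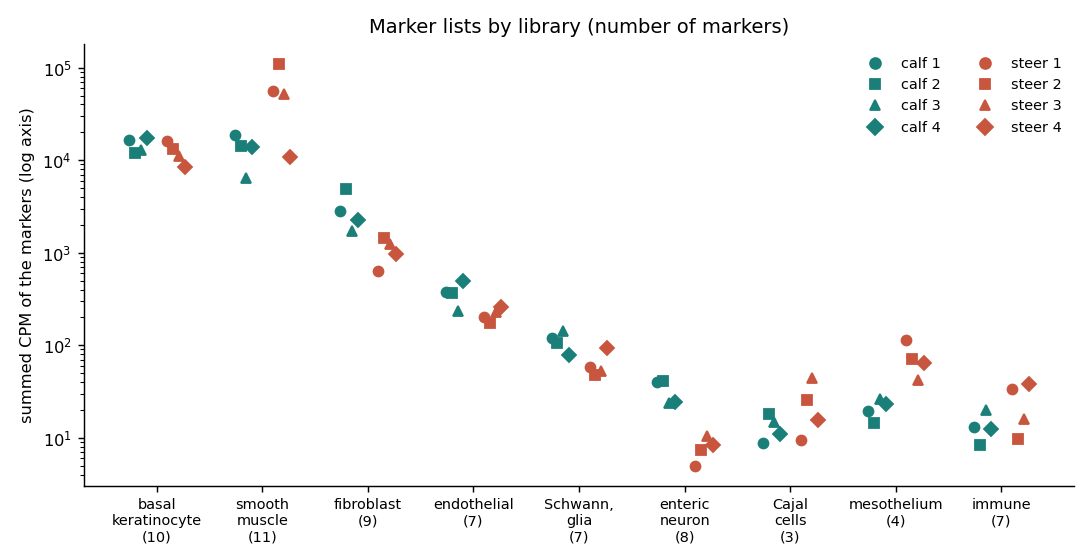
Summed CPM of the markers of each cell type by library, on a log axis, calves in teal and steers in red, with the number of markers in brackets. Fibroblast and enteric neuron sums are lower in all steers than in all calves, smooth muscle runs from 10953 to 109361 CPM among steers, and the basal keratinocyte sums overlap.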

How the data were processed

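RNA came from TRIzol and column extraction and paired-end libraries carried a dUTP second strand, per the labels' protocols. The submitters' processing notes name Trimmomatic 0.39, STAR 2.7.11a, featureCounts 2.0.2 and DESeq2 1.42.0. The deposited table holds raw whole-number counts by gene symbol. Its header shows that featureCounts summed reads over transcript spans, introns included, ignored strand, took each mate separately (86.9% to 89% of counts from 1 to 10 were even) and dropped reads lying in more than 1 gene; the deposited length is the number of counted bases. Chromosomes came from a RefSeq table of ARS-UCD2.0 by symbol (27621 matched, 83.4%; all 9 core genes).

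Groups were compared with edgeR 4.0.16 in R 4.3.3 (filterByExpr, TMM, robust quasi-likelihood F test, Benjamini-Hochberg over 16326 genes). The SE was taken as the size of the log2 change over the root of F. Values are means ± SD over 4 animals a group, and p-values measure the spread between them. No library repeated another (smallest chi-square over its degrees of freedom 105.5). In counts simulated for this comparison with 200 genes changed, 76 of 16055 genes were called, 4 of them unchanged. Of genes changed 4-fold 63% were recovered, and of those changed 2-fold 9%. In the data 2752 genes were called, so these rates need not hold there.

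The members and gene lists were chosen with earlier results of these data known. The naming rule took all core genes, up to 4 called genes of at least 1 CPM in each pathway list, its most abundant uncalled member, the 5 genes nearest to GLI1 and to PTCH1, and each cell type's most abundant marker. The other genes named (such as SCUBE2, SUFU, CDON, FOXF1, KRT5 and PDGFRA) were chosen after their values were seen. Some genes that the rule takes are not reported here; counts, sums and medians over lists include them. Alternatives covered other scalings and filters, DESeq2, limma-voom (limma 3.58.1), non-robust dispersion, a block by replicate number, omission of the 50 most abundant genes, a smooth muscle covariate and left-out libraries.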

Additional observations from a re-analysis of the deposited data

How the results depend on the processing

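GLI1 kept its direction and its call in all 20 alternatives, and no core gene's fitted change took the opposite sign. The number of called core genes was 1 of 8 tested. It was 4 of 8 with DESeq2 or limma-voom and 2 of 7 with the stricter filter (at least 1 CPM in 4 libraries). It was 2 of 8 with the replicate block, the smooth muscle covariate, or calf 2 and steer 4 left out. With 1 library left out it was 1 to 2 of 8 (2 without steer 2 or steer 4). SHH passed with DESeq2 (-1.87), limma-voom (-2.19), the replicate block (-2.30) and calf 2 and steer 4 left out (-2.89), and its log2 change with 1 library left out was -2.74 to -1.52. DHH passed with the stricter filter (-1.99), DESeq2 (-1.997) and limma-voom (-2.13), with -2.28 to -1.57 over single libraries left out. It met the stricter filter through the calves alone, so its call there is no separate support. SMO passed with DESeq2 (-1.01), limma-voom (-1.16) and the smooth muscle covariate (-1.74), with -1.32 to -0.78 over single libraries left out. Over all 16326 tested genes 2752 were called, 1831 with the replicate block, 4080 with DESeq2 and 2841 with limma-voom. This number was 2869 with the smooth muscle covariate and 2947 with calf 2 and steer 4 left out. The stricter filter gave 2440 of 13765 genes. With 1 library left out it ran from 1734 of 16667 (without calf 1) to 3257 of 16644 (without steer 4). Of the 91 other pathway genes tested 11 were called, and 7 (without calf 1) to 16 (without steer 4) with 1 library left out. The cause was not tested. The ratios did not pass in any setting. With 4 against 4 libraries, a pass would need more of the ratios at the smallest p, and 4 against 3 or 3 against 3 libraries cannot reach the threshold. With the replicate number as a block, NOTUM (-2.73, adjusted p = 0.0694) and CCND2 (1.45, 0.0586) lost their calls. Deviations of calf and steer of the same number correlated at 0.16, 0.07, -0.08 and -0.24 over genes, and those of unlike number at -0.33 to 0.30. No pairing by number was seen, but so few animals cannot exclude a weak one. Low counts limit DHH and HHIP in steers, at 4 to 44 and 0 to 28 counts per library. The steer levels of GLI1 and its ratios also rest on few counts, at 18 to 74 per library.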
